A study of Mus musculus with 6 samples.

Results

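Lcn2, Saa3, Serpina3n, Hp, Orm1, Ptx3, Il6, Socs3, Steap4 and Stat3 are genes of the acute-phase response and of the Il6-Stat3 pathway that drives it. They were chosen by name, and all 10 of 10 were found among the 33924 gene symbols of the table. RNA was measured in RPE/choroid, the retinal pigment epithelium scraped from the eyecup together with the vascular layer beneath it, from wild-type C57BL/6J mice for which no treatment is named. There were 3 libraries from young mice, labelled 1 to 2 months, and 3 from aged mice, labelled 20 to 24 months in the titles and 22 to 24 months in the time label. The labels give male for each mouse, whereas the study's methods include females and state a somewhat higher age for the young group. Total RNA was sequenced after removal of ribosomal RNA, without selection for poly(A) tails.

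The study compared young with aged tissue. The table gives, beside the columns of the authors' own comparison, which are not used here, 1 value per gene: the authors' mean of normalized counts over all 6 libraries. Levels of the 10 genes in RPE/choroid are therefore described for both ages together. No level per mouse or per age group was analysed, no difference with age is given, and no value has a replicate error. The depth of each library is unknown here. In bulk tissue, fewer cells of a type and less RNA per cell cannot be told apart.

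Il6 is a secreted cytokine that binds its receptor Il6ra and the shared signalling chain Il6st. Jak kinases on this chain phosphorylate Stat3, which enters the nucleus and activates genes of the acute phase. One of these targets, Socs3, inhibits the receptor chain and so ends the signal. Most acute-phase proteins in blood are made by hepatocytes, but several are also made locally by glia, epithelia, fibroblasts and myeloid cells.

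Members differed widely in level. Of the 10 genes, 9 had an authors' mean of at least 10 normalized counts and 4 reached 100, while 67.4% and 48.2% of the 26681 genes above 0 did so. Their median percentile among genes above 0 was 49.7. It was 60.5 among all symbols of the table and 25.4 among genes with a mean of at least 10, so that their place depends on the background. Together they held 0.0383% of the summed mean of all genes, and Stat3 and Serpina3n made up 38.4% and 36.6% of the members' own sum.

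The ligand was the lowest of the 10 genes. Il6, on chromosome 5 at 30013114 to 30019981 (GRCm38, plus strand), had an authors' mean of 3.06 normalized counts, above 22.5% of the genes above 0. The transducer was at the other end. Stat3, the transcription factor that carries the signal to the nucleus, on chromosome 11 at 100885098 to 100939540 (minus strand), had an authors' mean of 2822 normalized counts and stood above 95.0% of genes. The feedback inhibitor Socs3, on the same chromosome at 117966079 to 117970047 (minus strand), had 314 normalized counts and stood above 64.5%. Both signalling genes thus lay above the median gene and Il6 below it.

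Among the secreted acute-phase genes, Serpina3n stood apart. Serpina3n encodes a serine protease inhibitor and lies on chromosome 12 at 104406729 to 104414329 (plus strand). Its authors' mean was 2687 normalized counts, above 94.6% of genes. Orm1, which encodes the plasma carrier orosomucoid (chromosome 4, 63344560 to 63348163, plus strand), had 82.1 normalized counts. Hp, which encodes the haemoglobin-binding haptoglobin (chromosome 8, 109575128 to 109579172, minus strand), had 78.2. Both were close to the median of genes above 0, which was also 82.1 normalized counts.

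The remaining secreted genes were lower. Ptx3, a long pentraxin of innate immunity (chromosome 3, 66219910 to 66225805, plus strand), had an authors' mean of 31.7 normalized counts. Lcn2, which binds bacterial iron carriers (chromosome 2, 32384633 to 32388252, minus strand), had 25.8. Saa3, a serum amyloid A protein made outside the liver (chromosome 7, 46711998 to 46715700, minus strand), had 22.4. These genes stood above 42.3%, 40.8% and 39.8% of genes.

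Steap4, a membrane metalloreductase of iron and copper that inflammatory cytokines induce in other tissues (chromosome 5, 7960457 to 7982213, plus strand), was abundant. Its authors' mean was 1275 normalized counts, above 86.1% of genes. It was the third of the 10 genes on this scale, after Stat3 and Serpina3n.

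**Figure D1:**
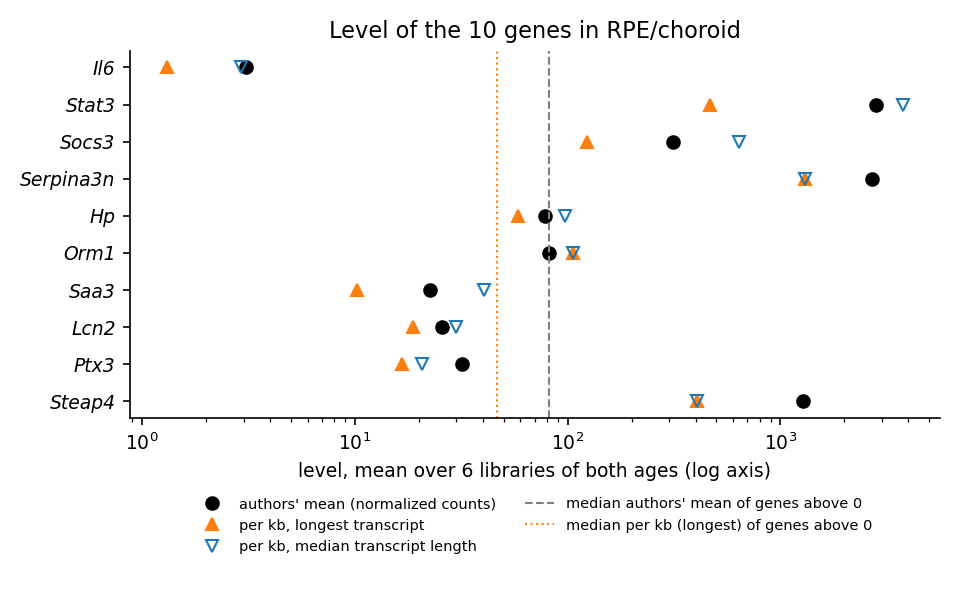
Level of each of the 10 genes as the authors' mean over the 6 libraries (circles, normalized counts) and after division by the longest (filled triangles) or the median (open triangles) annotated transcript length in kb, on a log axis. Il6 sits lowest on each scale at 3.06, 1.31 and 2.91, and the circles of Serpina3n, Stat3, Steap4 and Socs3 sit right of the median of genes above 0 (dashed line, 82.1 normalized counts), while their filled triangles and those of Orm1 and Hp sit right of the median per kb of the longest transcript (dotted line, 46.7).

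Where values scale with transcript length, longer transcripts have higher values at the same number of molecules. Whether these values do could not be settled, since the study's methods start from TPM, which is already divided by length. Across 13853 genes with a mean of at least 10, the rank correlation of median protein-coding transcript length with the deposited mean was 0.142. This value cannot settle it, because short and long genes may also differ in their number of molecules. Values per kb are therefore given beside the deposited ones, and they would be divided by length a second time if the deposited ones no longer scale with it. Per kb of the longest transcript, Serpina3n led with 1302 normalized counts per kb, followed by Stat3 with 467, Steap4 with 404, Socs3 with 123, Orm1 with 106 and Hp with 58.2. Lcn2 had 18.8 normalized counts per kb, Ptx3 16.7, Saa3 10.2 and Il6 1.31. The ratio of Stat3 to Serpina3n was 0.359 per kb of the longest transcript, 1.05 as deposited and 2.89 per kb of the median transcript length. The order of the leading genes therefore depends on the length assigned to Stat3. This gene has 14 annotated transcripts with a longest of 6042 bases and a median of 749. The median counts every annotated transcript of a gene, protein-coding or not, so that short transcripts can lower it. Il6 was the lowest gene on all of these scales. Serpina3n, Stat3, Steap4 and Socs3 were each above Hp, Saa3, Lcn2 and Ptx3 on all of them. Serpina3n, Stat3 and Steap4 were also each above Orm1, whereas Socs3 and Orm1 were neighbours per kb of the longest transcript, with 123 and 106. Neighbours in the order cannot be separated, because no spread over libraries was analysed.

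Several of the genes belong to families of near relatives, and the families differed in how far 1 gene dominated. The Serpina3 genes are an expanded cluster of protease inhibitors on chromosome 12. Serpina3n held 92.0% of the summed mean per kb of the 11 Serpina3 genes listed. Serpina3g followed with 150.9 normalized counts, against 2687 for Serpina3n, a ratio of 15.6 per kb of the longest transcript and 6.77 per kb of the median length. Serpina3f had 28.8, Serpina3m 16.6, Serpina3c 7.58, Serpina3i 3.56 and Serpina3h 2.59 normalized counts, and Serpina3a, Serpina3b, Serpina3j and Serpina3k were listed at 0. Of the 31-base words in the transcripts of Serpina3n, 78.4% occur in no other annotated gene, and no single relative shares more than 5.90% of them.

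Orm1 and Saa3 likewise led their families. Orm1 held 82.9% of the summed mean per kb of the 3 orosomucoid genes, with Orm2 at 13.7 and Orm3 at 3.19 normalized counts. Orm1 was 5.98-fold above Orm2 per kb. Of the words of Orm1, 27.5% also occur in Orm2 and 72.5% occur in no other gene, so how reads of these shared stretches were split between the genes is uncertain. Saa3 held 85.9% of the summed mean per kb of the 4 serum amyloid A genes. Saa1 and Saa2, which the liver secretes in the acute phase, had 2.20 and 1.90 normalized counts, and Saa4 was listed at 0. Of the words of Saa3, 92.6% occur in no other gene, whereas 46.0% of the words of Saa1 also occur in Saa2.

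In the Steap, Stat, Socs and pentraxin families the member held a smaller part of the sum. Steap4 was 14.2-fold above Steap1 per kb of the longest transcript. Against Steap2 the ratio was 0.911 as deposited, 3.01 per kb of the longest transcript and 1.00 per kb of the median length, and against Steap3 it was 2.52 and 1.40. Among the Stat genes, Stat3 had 2822, Stat6 2054, Stat5b 1824, Stat2 812, Stat5a 411 and Stat4 38.9 normalized counts. Per kb of the longest transcript Stat3 was 0.859 of Stat6, and per kb of the median length it was 1.28-fold above it. Stat3 and Stat5a overlap at their ends on opposite strands. The library kit keeps strand, but whether the counting used it is not given in the sources used here.

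Socs3 was not the leading gene of its family. It held 4.88% of the summed mean of the 7 Socs genes and Cish as deposited and 10.5% per kb of the longest transcript. Socs6 had 1900, Socs7 1485, Socs4 1112 and Socs5 909 normalized counts, against 314 for Socs3. Of the family members known best as cytokine-induced feedback inhibitors, Socs2 had 496, Cish 163 and Socs1 52.7 normalized counts. Per kb of the longest transcript Socs3 was 0.391 of Socs6 and 0.581 of Socs7, and per kb of the median length 0.583 and 1.62, so that of these Socs6 was above it on both. Socs3 was 6.78-fold above Socs1 per kb of the longest transcript and 34.6-fold per kb of the median length. Among the pentraxins, Ptx3 was below Ptx4, with 31.7 against 93.8 normalized counts and a ratio of 0.282 per kb. The short pentraxins of plasma were near 0, with Crp at 0.380 and Apcs listed at 0. Ptx3 lies within the span of Veph1, which is read from the opposite strand.

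**Figure D2:**
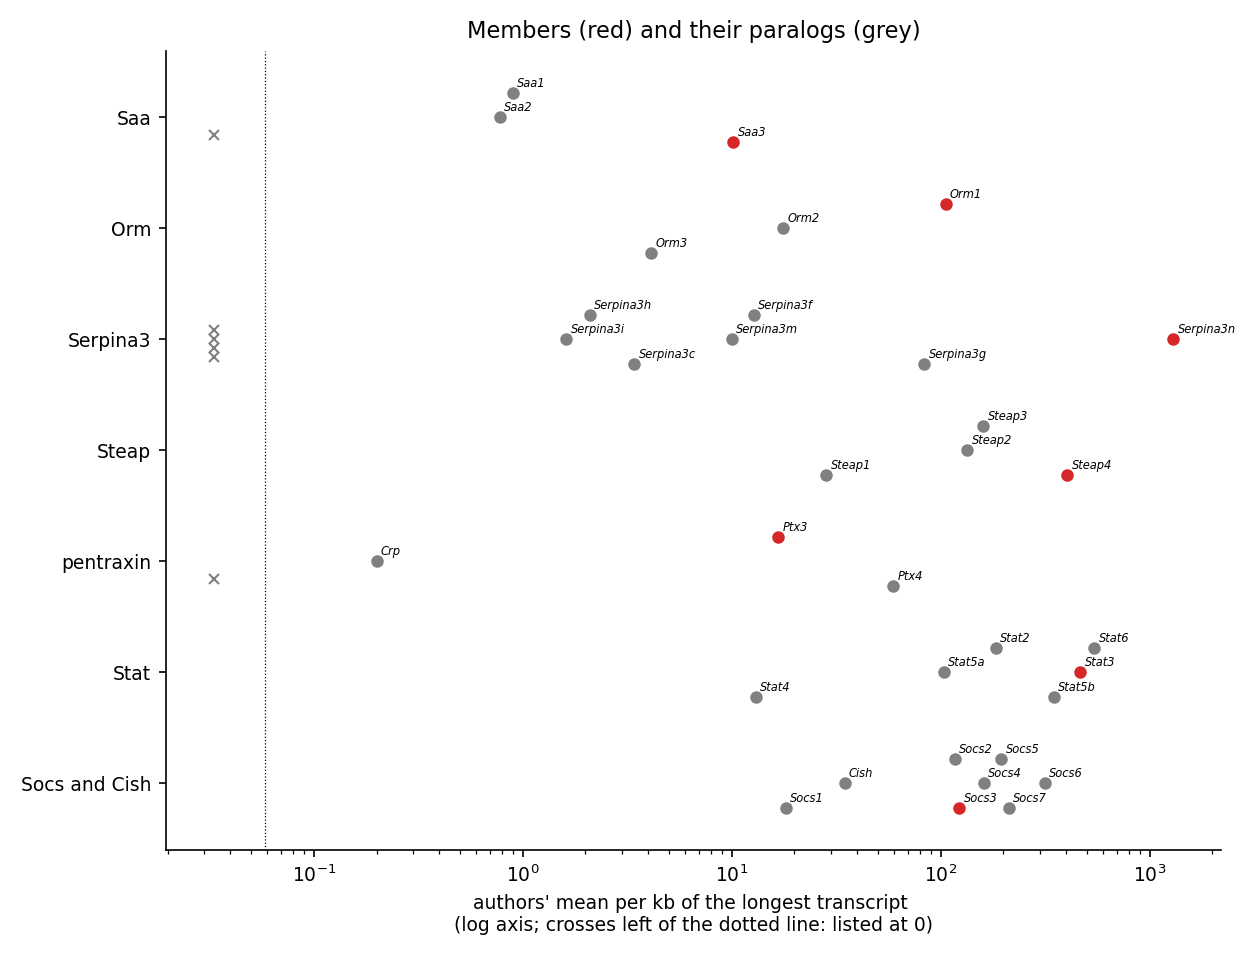
Members (red) and their paralogs (grey) by family, as the authors' mean per kb of the longest transcript on a log axis, with crosses for genes listed at 0. Serpina3n, Orm1 and Saa3 sit to the right of every relative shown, Socs3 sits within its family, and Ptx3 (16.7) sits left of Ptx4 (59.3).

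The receptors and kinases through which Il6 acts were described from a list of 24 genes of Il6 family signalling. All 24 were above 0, and 22 had a mean of at least 10 normalized counts. The signalling chain Il6st had 8186 normalized counts and Jak1 had 4323, both above Stat3 as deposited and per kb of the longest transcript. Per kb of the median length Jak1 stayed above Stat3, whereas Il6st, with 2947 against 3768 for Stat3, was below it. The receptor Il6ra, which gives cells their own sensitivity to Il6, had 131.8 normalized counts. Il6st was 61.9-fold above Il6ra per kb of the longest transcript and 134-fold per kb of the median length. Of the receptors for related cytokines, Cntfr had 119.4 normalized counts, below Il6ra as deposited but above it per kb of the longest transcript, with 59.9 against 15.3. The others were higher than Il6ra on each scale. Lifr had 5544, Osmr 2533 and Il11ra1 2358 normalized counts, which gave ratios to Il6ra of 37.7, 30.2 and 59.3 per kb of the longest transcript and of 80.9, 37.4 and 82 per kb of the median length. Of the other cytokines listed, Clcf1, close to the median gene, had 83.2, Osm 22.7, Lif 20.7, Il11 7.61 and Cntf 4.25 normalized counts.

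Transcription factors that act with Stat3 at acute-phase genes were present. Cebpd had 588, Cebpb 300 and Junb 615 normalized counts. Socs3 was 0.783 of Cebpd and 0.617 of Cebpb per kb of the longest transcript. Per kb of the median length it was 2.27-fold and 3.22-fold above them. Their order therefore depends on the length used, which for Socs3 was 2552 bases at the longest and 490 at the median.

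Of 23 other acute-phase genes listed, 11 had a mean of at least 10 normalized counts, 9 were above 0 but lower, and 3 were listed at 0. The highest as deposited were A2m, a broad protease inhibitor, with 5518 normalized counts, Cp, the copper-carrying ferroxidase, with 4469, and the metallothionein Mt1 with 2323. Per kb of the longest transcript Mt1 led with 2141, followed by Mt2 with 2023, A2m with 1198 and Cp with 979, and per kb of the median length Mt1 and Cp led with 3670 and 3650. Serpina3n was 1.09-fold above A2m and 1.33-fold above Cp per kb of the longest transcript, and 0.608 and 0.357 of them per kb of the median length. Fibrinogen chains were near 0, with Fga at 0.200, Fgg at 0.154 and Fgb listed at 0. Lrg1, a Stat3 target in many tissues, had 87.5 normalized counts, or 62.1 per kb of the longest transcript against 106 for Orm1.

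A list of receptors for the secreted members and of related uptake genes, which also holds the haem-degrading enzyme Hmox1, had 7 of 7 genes above 10 normalized counts. Lrp1, a scavenger receptor for protease complexes, had 36712, Lrp2, which takes up Lcn2, had 3877, and Slc22a17, a further Lcn2 receptor, had 1379. Cd163, the macrophage receptor for haptoglobin bound to haemoglobin, had 266 normalized counts.

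Marker lists were used to describe the tissue in which these levels were measured. RPE markers were high in 6 of 7 genes, each at 1000 normalized counts or more, with Rpe65 at 43745 and Best1 at 69.8. Hepatocyte markers were at or near 0, since 2 of 7 were listed at 0 and the other 5 were below 10, with Alb at 1.18 normalized counts and a summed mean of 13.9 for the list. Neutrophils, which store Lcn2 and haptoglobin in granules, were covered by 8 markers. Of these, S100a9 had 111.6, S100a8 81.5, Ltf 41.1, Camp 33.9 and Retnlg 15.6 normalized counts, Ngp had 2.92, Elane 0.348, and Mpo was listed at 0. Per kb of the longest transcript these markers ran from 0 to 215, against 18.8 for Lcn2 and 58.2 for Hp, and their part in those levels was not tested.

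Markers of other cell types that can express these genes were abundant. All 6 macrophage markers in the table were at or above 1224 normalized counts, and Adgre1 was not analysed here. Fibroblast markers ran from 379 to 64562 and endothelial markers from 1025 to 6377 normalized counts. Markers of Müller glia and astrocytes, retinal cells that express Serpina3n and Stat3 under stress, ran from 812 to 30062, with Gfap at 1105. The highest of them, Rlbp1, is also on the RPE list, and without it the highest was Glul with 28609. Rod genes ran from 5787 to 13165 normalized counts, with Sag, the rod arrestin, highest of the 4 listed as deposited and Gnat1, the rod transducin, highest per kb of either length, although the neural retina had been removed. The share of each cell type in the level of the 10 genes was not tested.

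**Figure D3:**
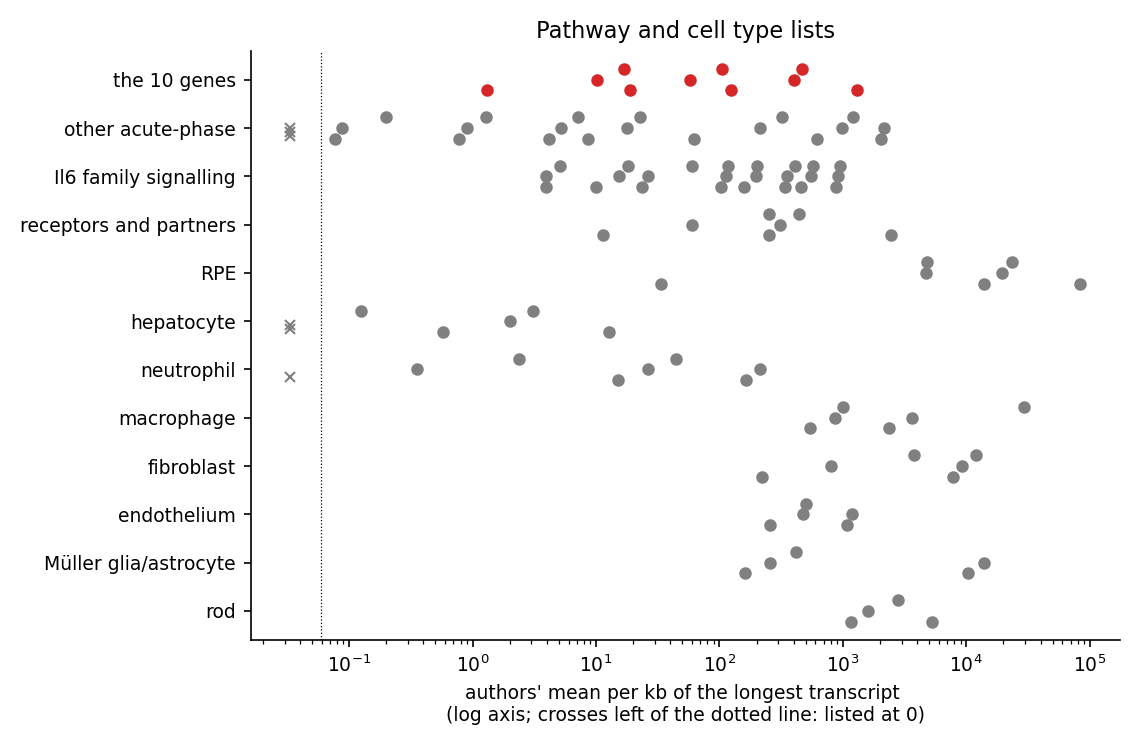
Authors' mean per kb of the longest transcript, on a log axis, for the 10 genes (red), related pathway lists and cell type marker lists (grey), with crosses for genes listed at 0. Hepatocyte markers sit between 0 and 12.8 per kb, neutrophil markers between 0 and 215, and the 10 genes span 1.31 to 1302.

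Promoter sequence was described for the genes with an entry in the RefSeq promoter table (GRCm38.p6), 8 of 10, without Hp and Orm1. The 250 bases before the start site were searched on both strands for the letters TTCNNNGAA, to which Stat factors bind, TTGNNCAA, for C/EBP factors, and GGNNTTTCC, for NF-kB. The first was found in 2 of 8 genes (6.69% of the 19896 promoters of genes in the table), the second in 3 of 8 (5.40%) and the third in 4 of 8 (5.04%). With a further G in front of the third, the numbers were 3 of 8 and 1.46%. The start site is that of the promoter table, which can differ from the end of the gene span given above from GENCODE. Among the genes with a match, it lies inside that span for Socs3, Lcn2, Saa3 and Steap4. The matches of Socs3 and Lcn2 lie inside the span too, and those of Saa3 and Steap4 lie outside it. None of the motifs overlaps another in these windows. No motif was in more than 4 of the 8 genes. Each match is given to show which genes hold which letters, with the matched letters in capitals and 16 bases on each side.
Il6, chr5:30012970-30013009, plus strand, C/EBP letters: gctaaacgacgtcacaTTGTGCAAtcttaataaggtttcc
Ptx3, chr3:66219814-66219853, plus strand, C/EBP letters: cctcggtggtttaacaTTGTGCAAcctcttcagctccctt
Lcn2, chr2:32387932-32387971, minus strand, C/EBP letters: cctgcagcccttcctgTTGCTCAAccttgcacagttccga
Socs3, chr11:117969496-117969536, minus strand, Stat letters: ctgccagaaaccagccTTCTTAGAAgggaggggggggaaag
Steap4, chr5:7960340-7960380, plus strand, Stat letters: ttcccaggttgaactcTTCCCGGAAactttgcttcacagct
Il6, chr5:30013055-30013095, plus strand, NF-kB letters: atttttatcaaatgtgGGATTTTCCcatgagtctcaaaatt
Serpina3n, chr12:104406522-104406562, plus strand, NF-kB letters: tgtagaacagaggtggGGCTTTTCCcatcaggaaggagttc
Steap4, chr5:7960230-7960270, plus strand, NF-kB letters, matched on the other strand: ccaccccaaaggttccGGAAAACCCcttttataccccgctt
Saa3, chr7:46715839-46715879, minus strand, NF-kB letters, matched on the other strand: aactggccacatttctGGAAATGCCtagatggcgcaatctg

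Il6 and Ptx3 hold the same 8 letters, TTGTGCAA, in this window, at 128 to 121 and at 57 to 50 bases before the start. Il6 and Steap4 each hold 2 of the 3 motifs. Stat3 holds none of them in these 250 bases, which says only that these letters are not in this window. Genes that hold the same letters differed widely in level, since of those with the NF-kB letters Serpina3n had 2687 normalized counts and Il6 had 3.06.

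Sailfish, which the authors used with its default settings, divides reads shared between transcripts by an estimate, and the table does not show how many reads of a gene were shared. Gapdh, a gene that every cell uses and that has many processed pseudogenes, had 158.2 normalized counts, and Actb had 30340. Words of Gapdh occur in 324 other annotated genes and those of Actb in 44. Over all annotated transcripts, 72.8% of the words of Gapdh and 76.5% of those of Actb occur in no other gene. The gene that shares most with Gapdh, Gm7336, holds 1169 of its 4408 words. For Actb it is Lrrc58, with 429 of 2821 words. Lcn2, Il6, Ptx3, Socs3 and Steap4 share no 31-base word with another gene, and for Hp and Stat3 99.7% and 98.3% of words are their own. Among the members, Orm1 and Serpina3n are the genes with under 80% of words of their own, while words of Saa3, at 22.4 normalized counts, occur in 1710 other genes, the largest part shared with any of them being the 2.62% shared with Malat1. The effect of shared words on these levels was not tested.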

How the data were processed

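RNA from RPE/choroid of 3 young and 3 aged mice was sequenced. Per the labels and the methods of the study, the authors trimmed paired reads with BBDuk, mapped them with STAR to Ensembl transcripts of GRCm38, quantified them with Sailfish, turned TPM values into normalized counts by the total count method and compared the ages with DESeq2. The deposited baseMean is a signal that is never negative: the authors' mean of normalized counts over all 6 libraries. Whether these values still scale with transcript length cannot be settled from the sources used here, so both scales are given. The other 5 columns hold the authors' own comparison (log2 fold change, its standard error, Wald statistic, p-value and adjusted p-value) and were not used. There were 0 further columns of values per sample.

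A percentile is the percent of the 26681 genes above 0 with a lower mean, or, for values per kb, of the 22862 of them with a length. Transcript lengths, gene positions and 31-base words came from GENCODE M21 (GRCm38), a later annotation of the same build, and 28553 of 33924 symbols had a length. Words were counted on the transcript strand. Scripts ran in Python 3.11.15 with pandas 2.3.3 and were tested on simulated data. No test was run, since 1 pooled value per gene allows none, and the planned test of age needs counts per library. The table's sum of means was 19192071. Depth per library is unknown here, and no interval is given for a level. The rule for named genes took the 10 members, and allowed their paralogs above 0 and the 3 most abundant genes of each list of related genes. Paralogs at 0, lower genes of the lists, single cell type markers, the shared words and the search for promoter letters were chosen after values were seen. The members and lists were chosen with earlier results of these data known. Alternatives were the background of the percentile, the minimum mean and the transcript length. From the lists, 3 genes were left out of every count and figure and are not reported here.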

Additional observations from a re-analysis of the deposited data

How the results depend on the processing

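Levels have no replicate error, so a share or percentile is said to move when it leaves an exact binomial interval around the value as reported, and a count when it changes by over 1.5 times. For a share this interval treats normalized counts as counts, and for a percentile it treats genes as independent draws, so it is a yardstick and no error of the level. The median percentile of the 10 genes was 49.7 among genes above 0, 60.5 with genes at 0 included, 25.4 among genes with a mean of at least 10, 57.5 per kb of the longest transcript and 53.7 per kb of the median transcript length. The number of genes at or above the minimum was 9 at a minimum of 10, 10 at a minimum of 1 and 4 at a minimum of 100. The share of the leading gene was 38.4% for Stat3 as deposited, 51.9% for Serpina3n per kb of the longest transcript and 58.8% for Stat3 per kb of the median length, the last chosen after seeing the data. Adding genes at 0 must raise every percentile and leaving out low genes must lower it. Percentiles of single genes moved for 8 and 9 of 10 per kb of the longest and the median length, where the background also changed to the 22862 genes with a length, so that both changes act together. Other causes were not tested.

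No paired analysis was possible because each gene has 1 pooled mean and no values by mouse. The test of aged against young mice with edgeR, its alternatives with DESeq2 and without a filter, and the fits that leave out 1 library were not run either, since all of them need such values. Depth limits cannot be given.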
